A study of Rattus norvegicus with 18 samples.

Results

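The genes described here are 10 immediate early genes, Fos, Fosb, Jun, Junb, Jund, Atf3, Egr1, Ier2, Ier3 and Zfp36, taken by name from a gene table of 18923 genes. All 10 were present, each as a single entry, and all 10 passed the filter for testing. The table holds RNA abundance in the nucleus pulposus, the gel-like centre of the disc between vertebrae, in rats of 2, 10 and 20 months. The labels name no strain, sex, genotype or treatment, so that age is the sole difference they give between the groups. Each age is represented by 3 libraries of the input RNA of an m6A immunoprecipitation experiment, that is, poly(A) RNA sequenced without the antibody step. The immunoprecipitated libraries of the study are not analysed here. Whether the 3 libraries of an age represent separate animals is not stated in the labels. The p-values therefore speak to the spread among these libraries alone, and that spread may be technical.

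Immediate early genes are switched on within minutes of a stimulus, without new protein synthesis, because the factors that start them are already in the cell. MAP kinases phosphorylate ELK1 and related factors, which sit with the serum response factor SRF on CArG boxes, and CREB acts at cyclic AMP response elements. FOS, JUN and ATF family proteins pair through leucine zippers into the AP-1 factors, EGR1 is a zinc finger factor, IER2 and IER3 are small response proteins, and ZFP36 (tristetraprolin) binds AU-rich elements and hastens the decay of short-lived mRNAs. In the disc these genes are studied as responders to mechanical load and inflammatory cytokines, and they are known to respond to tissue handling too.

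Expression is given as FPKM, fragments per kilobase of transcript length corrected for the number of mapped fragments, so levels can be compared between genes within a library. Comparisons between libraries depend on the scaling too, above all those with 20 months, and rescaled values are therefore given below. Judged from the ratio of FPKM to read coverage, the libraries of 2, 10 and 20 months held 4.77 to 5.04, 4.35 to 4.74 and 3.53 to 4.90 gigabases, and replicate 1 of 20 months was the shallowest. Read length was not measured but inferred from isoform coverage times transcript length. The commonest value so inferred was 141 bases in the 20-month libraries and 132 bases in the others. Of all bases, 80.1 to 80.9% lay on listed transcripts at 20 months against 85.6 to 86.1% at the earlier ages. These differences and age cannot be told apart in any comparison with 20 months. The notochordal marker Tbxt stood at 2097 to 2486 FPKM and the keratin gene Krt19 at 3247 to 5488 FPKM in the 9 libraries, while Shh and Foxa2 were at or below 0.0492 and 0.216 FPKM. Of the 12 tested genes of this nucleus pulposus and notochordal list, 8 fell and 0 rose between 2 and 10 months (median −0.38, and 0.04 over all tested genes). Over all tested genes 11.4% fell and 19.0% rose. Between 2 and 20 months 8 genes of the list were lower past the test and 1 higher, where 49.6% of tested genes fell and 18.6% rose. The medians were −0.45 and −0.20. Under median-of-ratios scaling these counts were 6 and 5 (31.2% and 31.1% of tested genes). The part of these markers in the levels described below was not tested. Replicate 3 of 20 months stood apart in markers of neighbouring tissue. Its summed level of the skeletal muscle list (9 of 11 genes in the table) was 326 FPKM, against 24.7 and 21.4 in the other 20-month libraries and 44.1 to 48.8 in the younger ones. The annulus fibrosus and fibroblast list (8 of 9 genes in the table) stood at 95.9 FPKM there, against 23.2 and 29.5 FPKM in the other 20-month libraries. Dcn alone gave 66.4 of the 95.9 FPKM.

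At 10 months the libraries lay below all those of 2 months for 8 of the 10 genes, as they did for 21.5% of tested genes, and 1 of the 10, Jund, passed the test. At 20 months the genes went separate ways. Zfp36 was more than 3-fold higher at 20 months than at either earlier age. Atf3 too was highest and Ier3 was lowest at 20 months, whereas Jund, the most abundant member at each age, dipped at 10 months and returned. Egr1 was lower at 20 than at 2 months, but its difference from 10 months did not pass the test. The differences below are on the log2(FPKM + 1) scale with their standard errors (SE), and a gene is said to have risen or fallen at a limma adjusted p under 0.05 over all 11708 tested genes. These are bulk tissue libraries, in which fewer cells of a type and less RNA per cell cannot be told apart.

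**Figure D1:**
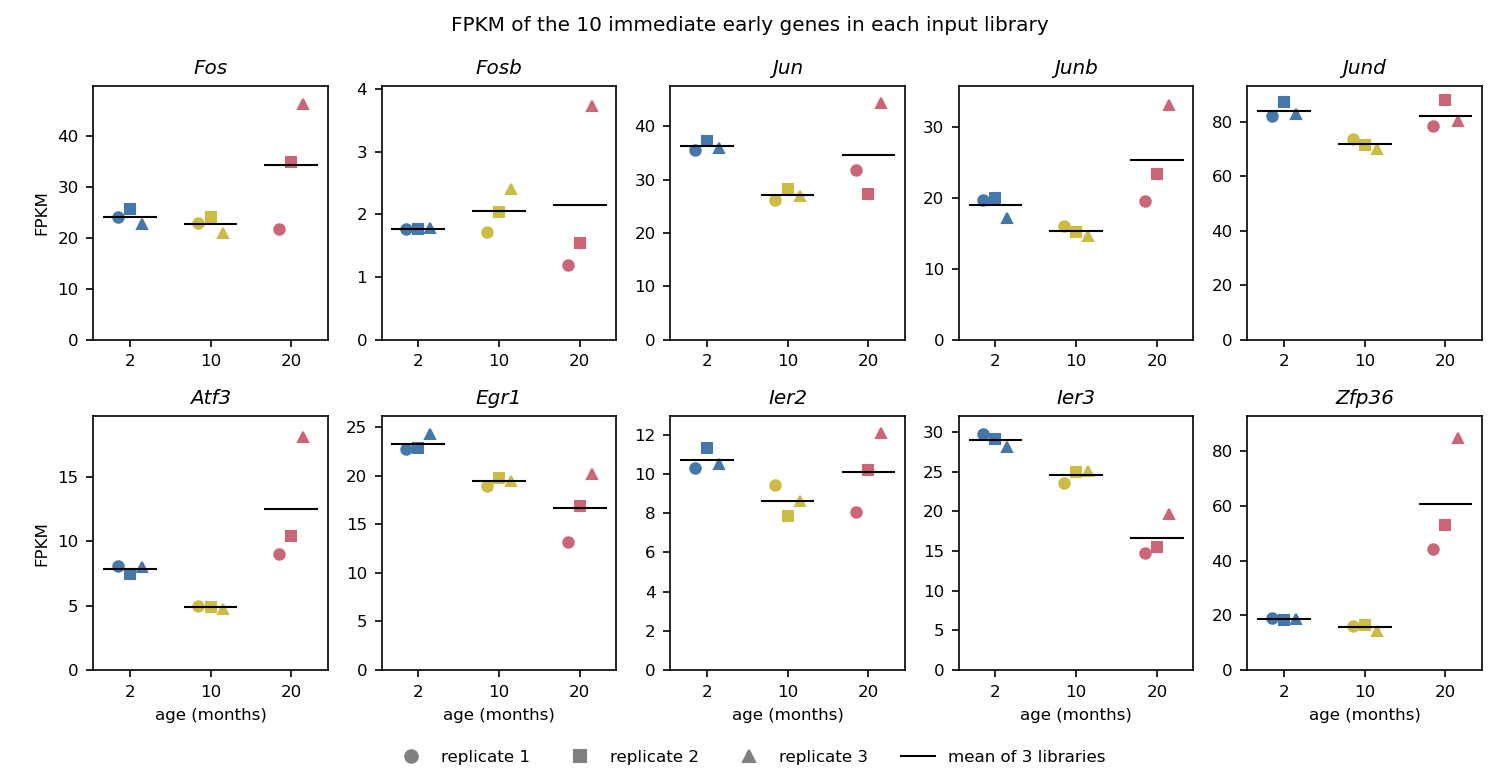
FPKM of each of the 10 genes (vertical axes, from 0, scaled per gene) in each input library at 2, 10 and 20 months (horizontal axes); symbols mark the replicate numbers and lines the mean of 3 libraries. Zfp36 stands at 44.2 to 84.8 FPKM at 20 months and at 14.4 to 19.2 FPKM in the younger libraries, and the 20-month points are the most scattered for each gene.

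Zfp36, which lies at chr1:85380088-85382569 in the table (plus strand, 2 exons), gave 19.2, 18.3 and 18.5 FPKM at 2 months. It stood at 16.1, 16.5 and 14.4 FPKM at 10 months and at 44.2, 53.1 and 84.8 FPKM at 20 months. The 20-month libraries were all above the younger ones without overlap, and those of 10 months were all below those of 2 months. The mean went from 18.7 ± 0.461 FPKM (SD, n = 3) at 2 months to 60.7 ± 21.4 FPKM at 20 months, a ratio of 3.25 (log2 difference 1.60 ± 0.19 SE, adjusted p = 7.47e-05). Against 10 months, with 15.6 ± 1.09 FPKM, the ratio was 3.88 (1.84 ± 0.19, adjusted p = 4.54e-05). Zfp36 ranked seventh of the 10 genes by level at 2 months and second at 20 months. Without replicate 3 of 20 months, the library with the muscle markers, the differences were 1.33 and 1.57 (adjusted p = 5.09e-06 and 6.51e-06). Between 10 and 2 months its log2 difference was −0.24 ± 0.19 (adjusted p = 0.370).

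Egr1, whose product activates growth factor and matrix genes and is held back by NAB1 and NAB2, took the opposite course at 20 months. It lies at chr18:27657628-27661429 (plus strand, 2 exons) and measured 22.7, 22.8 and 24.3 FPKM at 2 months. The 10-month libraries gave 18.9, 19.8 and 19.4 FPKM and the 20-month libraries 13.2, 16.9 and 20.2 FPKM. All 6 older libraries lay below the lowest 2-month library, but the 20-month libraries spanned the 10-month values. Egr1 fell from 23.3 ± 0.904 to 16.7 ± 3.51 FPKM between 2 and 20 months (−0.47 ± 0.12 SE, adjusted p = 0.00646). This call was lost when the libraries were rescaled by median of ratios (−0.25, adjusted p = 0.108) or quantile normalized (−0.30, adjusted p = 0.0546). Between 10 and 2 months the difference was −0.25 ± 0.12 (adjusted p = 0.142).

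The promoters of Egr1 and Zfp36 are shown because both hold a CArG box, the SRF binding sequence, and at 20 months the genes lay on opposite sides of their 2-month level. They are RefSeq sequences of the GRCr8 assembly, 250 bases before to 50 after the annotated start, 5′ to 3′ on the gene's strand. Capitals mark matches to a CArG box or to the EGR site GCGNGGGCG. The expression table does not name its build, and its coordinates are not those of GRCr8. The strand differs as well for Zfp36, plus in the expression table and minus in GRCr8. For Junb and Ier2 it is minus in the expression table and plus in GRCr8.
Egr1 promoter, chr18:26736828-26737127, plus strand: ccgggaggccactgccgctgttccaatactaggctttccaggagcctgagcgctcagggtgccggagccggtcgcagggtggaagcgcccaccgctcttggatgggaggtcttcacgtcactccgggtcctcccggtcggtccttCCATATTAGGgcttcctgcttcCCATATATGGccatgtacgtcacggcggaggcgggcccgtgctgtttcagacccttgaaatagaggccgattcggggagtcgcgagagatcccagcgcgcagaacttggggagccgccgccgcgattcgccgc
Zfp36 promoter, chr1:92799059-92799358, minus strand: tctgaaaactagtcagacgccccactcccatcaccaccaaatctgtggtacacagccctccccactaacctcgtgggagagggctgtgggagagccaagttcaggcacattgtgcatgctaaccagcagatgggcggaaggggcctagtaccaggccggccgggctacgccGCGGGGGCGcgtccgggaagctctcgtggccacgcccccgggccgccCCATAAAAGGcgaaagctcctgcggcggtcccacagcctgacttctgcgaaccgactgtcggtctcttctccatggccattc

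Promoter sequences were matched for 6 of the 10 genes, Fosb, Junb, Jund, Egr1, Ier2 and Zfp36, and both strands were searched. Egr1 held CArG boxes beginning 105 and 83 bases before the start and Zfp36 held one beginning 32 bases before it. Of 33469 promoters of the same length 1.64% held a CArG box. The EGR site was found in Zfp36, 79 bases before the start, and at 3 places in Jund (4.98% of promoters). The cyclic AMP response element TGACGTCA was found in Jund and Ier2 (1.83% of promoters), the ETS core CCGGAA in Ier2 (15.0%) and the TATA box TATAAA in Junb and Fosb (14.2%). The AP-1 site TGAGTCA was in 0 of the 6 promoters and in 4.63% of all. None of the listed matches overlapped another. These are matches of letters in a fixed window and say nothing of binding.

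Among the FOS proteins, which cannot pair with themselves and bind DNA with a JUN partner, Fos (chr6:109300433-109303299, plus strand, 4 exons) was the abundant one. Its level was 24.1, 25.7 and 22.7 FPKM at 2 months, 23.0, 24.1 and 21.1 FPKM at 10 months and 21.8, 35.0 and 46.3 FPKM at 20 months. A pair of 20-month libraries lay above each younger one and the remaining library lay among them. The mean of 34.4 ± 12.3 FPKM at 20 months against 24.2 ± 1.48 FPKM at 2 months did not pass the test (0.43 ± 0.21 SE, 95% interval −0.05 to 0.91, adjusted p = 0.103). Without replicate 1 of 20 months, the shallowest library, it passed (0.71, adjusted p = 6.73e-04), as it did after median-of-ratios scaling (0.65, adjusted p = 0.0277). Without replicate 3 of 20 months, the library with the muscle and fibroblast markers, it was 0.19 (adjusted p = 0.342). The difference between 20 and 10 months was 0.52 ± 0.21 (adjusted p = 0.0591) and between 10 and 2 months −0.09 ± 0.21 (adjusted p = 0.790).

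Fosb, which encodes a FOS protein with a truncated splice form known from neurons, was the lowest of the 10 genes at each age. At chr1:80214494-80221710 (minus strand) it measured 1.76, 1.77 and 1.79 FPKM at 2 months, 1.72, 2.04 and 2.40 FPKM at 10 months and 1.20, 1.54 and 3.73 FPKM at 20 months. The 20-month libraries surrounded those of both other ages. About 56 to 242 fragments stood behind each value, so that counting alone gives a coefficient of variation (CV, the SD as a share of the mean) of 13.4% at the lowest. None of its differences passed the test, and that of 20 against 2 months was 0.10 ± 0.24 SE (adjusted p = 0.727). The 3-exon form of the isoform table was listed at 0 in replicate 1 of 20 months and stood at 0.415 and 2.28 FPKM in the others, and the 4-exon form ranged up to 1.73 FPKM.

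The JUN proteins can pair with FOS, with ATF proteins or with each other, JUN being the strong activator, JUNB the weaker and often opposing partner, and JUND the form present in resting cells. Jun (chr5:114011189-114014277, minus strand, 1 exon) measured 35.6, 37.3 and 36.0 FPKM at 2 months and 26.2, 28.3 and 26.9 FPKM at 10 months. Its 20-month libraries gave 31.8, 27.4 and 44.4 FPKM. All 10-month libraries lay below all 2-month libraries, and the 20-month libraries overlapped both groups. The difference of −0.41 ± 0.14 SE between 10 and 2 months had an adjusted p of 0.0552 in the fit that shares the spread of all ages. With only those ages fitted it was the same size with an adjusted p of 2.55e-04. Jun stood at 34.6 ± 8.84 FPKM at 20 months against 36.3 ± 0.888 at 2 months (−0.10 ± 0.14, adjusted p = 0.553) and 27.2 ± 1.07 at 10 months (0.31 ± 0.14, adjusted p = 0.0792).

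Junb (chr19:26092974-26094756, minus strand, 1 exon) measured 19.8, 20.0 and 17.2 FPKM at 2 months, 16.1, 15.2 and 14.7 FPKM at 10 months and 19.6, 23.4 and 33.2 FPKM at 20 months. The 10-month libraries were the lowest of the 9, and the lowest 20-month library lay between those of 2 months. Junb rose from 15.3 ± 0.704 FPKM at 10 months to 25.4 ± 6.99 FPKM at 20 months (0.66 ± 0.16 SE, adjusted p = 0.00484). Against 2 months the difference was 0.37 ± 0.16 (adjusted p = 0.0603), with an adjusted p of 0.0103 after median-of-ratios scaling (0.59) and of 0.130 without replicate 3 of 20 months (0.17).

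Jund (chr16:20485029-20486707, minus strand, 1 exon) measured 82.1, 87.2 and 82.9 FPKM at 2 months, 73.6, 71.5 and 70.2 FPKM at 10 months and 78.5, 87.9 and 80.3 FPKM at 20 months. Its replicates were close together, and the 10-month libraries lay below all others without overlap. Jund fell from 84.0 ± 2.72 to 71.8 ± 1.68 FPKM between 2 and 10 months (−0.22 ± 0.05 SE, adjusted p = 0.00698) and rose to 82.2 ± 5.02 FPKM at 20 months (0.19 ± 0.05 against 10 months, adjusted p = 0.00572). The latter value was 0.46 after median-of-ratios scaling. The difference of 20 against 2 months, −0.03 ± 0.05 (adjusted p = 0.558), turned to 0.20 under that scaling (adjusted p = 0.00776).

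Jund alone made up 50.9 ± 0.679% of the summed FPKM of the 5 FOS and JUN genes and 51.6 ± 0.853% at 2 and 10 months (SD, n = 3 each). At 20 months its share was 51.3, 50.2 and 38.6% in the 3 libraries. Fos held 14.6 ± 0.403% at 2 months, 16.3 ± 0.740% at 10 months and 14.3, 20.0 and 22.3% in the 20-month libraries. In replicate 3 of 20 months the share of Jund was thus lower and that of Fos higher than in each other library. The sum itself was 165 ± 5.93, 139 ± 3.23 and 179 ± 27.7 FPKM at the 3 ages. Shares within a sum depend on each other, and no test was made on them.

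**Figure D2:**
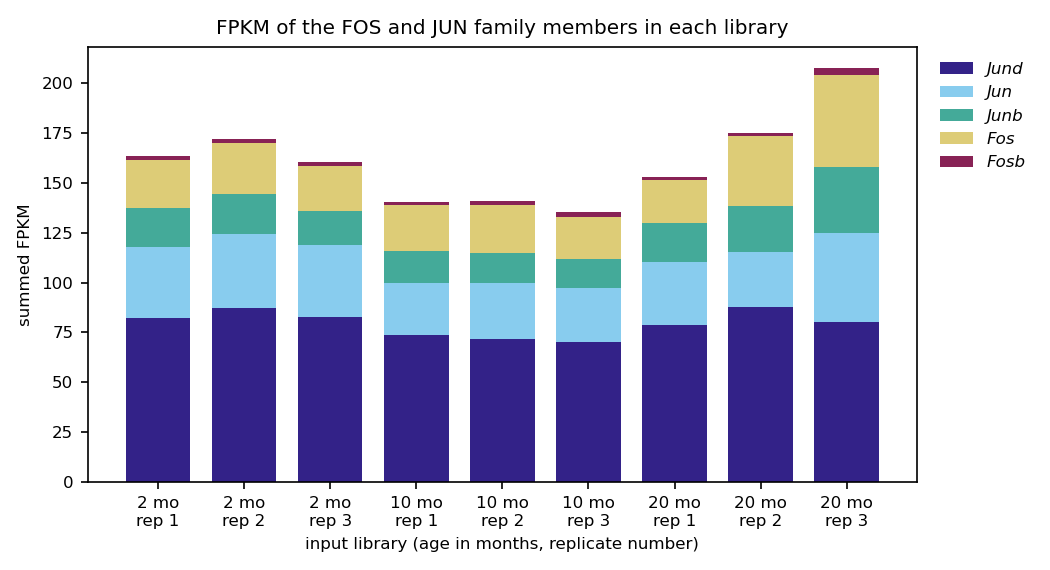
Stacked FPKM (vertical axis, from 0) of Jund, Jun, Junb, Fos and Fosb in each of the 9 libraries (horizontal axis, age and replicate). The summed level is 135 to 141 FPKM at 10 months and 153 to 208 FPKM at 20 months, and Jund is the tallest segment in each library.

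Atf3, which encodes a stress-induced factor that pairs with JUN proteins and often represses, lies at chr13:109817728-109849632 (minus strand). Its levels were 8.06, 7.48 and 7.97 FPKM at 2 months, 5.01, 4.90 and 4.76 FPKM at 10 months and 8.99, 10.4 and 18.1 FPKM at 20 months. The 3 ages did not overlap, with 10 months lowest and 20 months highest. Atf3 rose from 4.89 ± 0.124 FPKM at 10 months to 12.5 ± 4.89 FPKM at 20 months (1.14 ± 0.20 SE, adjusted p = 8.64e-04). Against 2 months, with 7.84 ± 0.313 FPKM, the rise was 0.55 ± 0.20 (adjusted p = 0.0320), and it was 0.27 without replicate 3 of 20 months (adjusted p = 0.00776). That call was lost without any 1 of the 2-month libraries (adjusted p = 0.0625, 0.0805 and 0.0649 without replicates 1, 2 and 3). The difference of 10 against 2 months was −0.59 ± 0.20 (adjusted p = 0.0510).

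The isoform table lists a 4-exon Atf3 transcript, ENSRNOT00000005085, and a 3-exon one, ENSRNOT00000089841. The 3-exon form held 19.8, 4.99 and 5.90% of the summed isoform FPKM at 2 months and 32.8, 11.9 and 10.6% at 10 months. At 20 months it held 68.3, 8.89 and 5.57%. Replicate 1 was the highest at each age, and in that of 20 months the 3-exon form stood at 7.20 FPKM, against 1.37 and 1.51 FPKM in the others. The split between isoforms was estimated by the authors' quantification and was not tested.

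Ier3, whose product limits cell death and dampens NF-kappaB signalling, was the member whose libraries lay lower at each later age without overlap. It lies at chr20:3438798-3440769 (minus strand) and measured 29.7, 29.1 and 28.1 FPKM at 2 months, 23.6, 24.9 and 25.1 FPKM at 10 months and 14.8, 15.5 and 19.7 FPKM at 20 months. No library of an older age reached the lowest of a younger age. Ier3 fell from 29.0 ± 0.795 to 16.7 ± 2.62 FPKM between 2 and 20 months (−0.77 ± 0.09 SE, adjusted p = 5.55e-05), and from 24.6 ± 0.791 FPKM between 10 and 20 months (−0.54 ± 0.09, adjusted p = 6.20e-04). After median-of-ratios scaling the latter was −0.29 (adjusted p = 0.0275). The earlier step of −0.23 ± 0.09 between 2 and 10 months had an adjusted p of 0.0794, and of 0.00257 with only those ages fitted.

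Ier2, which encodes a small nuclear protein, lies at chr19:25774143-25775659 (minus strand, 2 exons). It measured 10.3, 11.3 and 10.5 FPKM at 2 months, 9.42, 7.87 and 8.60 FPKM at 10 months and 8.07, 10.2 and 12.1 FPKM at 20 months. The 10-month libraries lay below those of 2 months, while the 20-month libraries spanned both. None of its differences passed the test in the fit of all ages. They were −0.28 ± 0.12 SE for 10 against 2 months (adjusted p = 0.113), −0.09 ± 0.12 for 20 against 2 (adjusted p = 0.540) and 0.19 ± 0.12 for 20 against 10 (adjusted p = 0.189).

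Counted over the members, 1 of 10 (Jund) fell and 0 rose between 2 and 10 months, where 11.4% of all tested genes fell and 19.0% rose. The libraries lay lower at 10 months without overlap for 8 of the 10, all but Fos and Fosb, against 21.5% of tested genes. The count of calls rested on the spread that the fit shares with the 20-month libraries. With only the 2- and 10-month libraries fitted, those 8 genes all fell, against 16.2% of tested genes. Without replicate 3 of 20 months 8 fell as well (13.4% of tested genes). The count was 5 without replicate 1 (13.3%) and 2 without replicate 2 (12.3%). The median log2 difference of the members was −0.25, and 0.04 over all tested genes.

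Between 2 and 20 months 2 members rose (Atf3 and Zfp36; 18.6% of tested genes rose) and 2 fell (Egr1 and Ier3; 49.6% fell). The same genes were those whose libraries did not overlap, where 19.4% of tested genes were higher and 51.0% lower. Between 10 and 20 months 4 members rose (Junb, Jund, Atf3 and Zfp36; 11.4% of tested genes rose) and Ier3 fell (53.3% fell). Their non-overlapping libraries named the same genes, at 12.6% of tested genes higher and 55.3% lower. The median differences of the members were 0.03 and 0.25, against −0.20 and −0.23 over all tested genes. Without replicate 3 of 20 months Atf3 and Zfp36 still rose against 2 months and Jun (−0.29, adjusted p = 0.00428) fell besides Egr1 and Ier3, at 18.2% of tested genes rising and 48.1% falling. Against 10 months Junb, Jund, Atf3 and Zfp36 then still rose, and Fosb (−0.37, adjusted p = 0.0209) and Egr1 (−0.36, adjusted p = 0.00838) fell with Ier3, at 11.4% and 52.0%. These comparisons share libraries and are not independent of each other.

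Scaling bears on these counts, since most genes had lower FPKM at 20 months. Under median-of-ratios scaling the middle of all genes shifted by 0.21 in 20 against 2 months and by 0.24 in 20 against 10 months, and by −0.03 in 10 against 2 months. Rising genes were 27.2% and 17.7% of the calls in the 20-month comparisons as deposited, 49.9% and 51.1% after that scaling and 44.8% and 44.2% after quantile normalization. For 10 against 2 months the share was 62.5%, 51.0% and 50.5%. After median-of-ratios scaling 5 members rose and 1 fell against 2 months (31.1% and 31.2% of tested genes), and 7 rose and 1 fell against 10 months (26.8% and 25.7%). Zfp36, Atf3 and Ier3 kept their calls under both scalings in both 20-month comparisons, as did Junb and Jund in the comparison with 10 months.

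**Figure D3:**
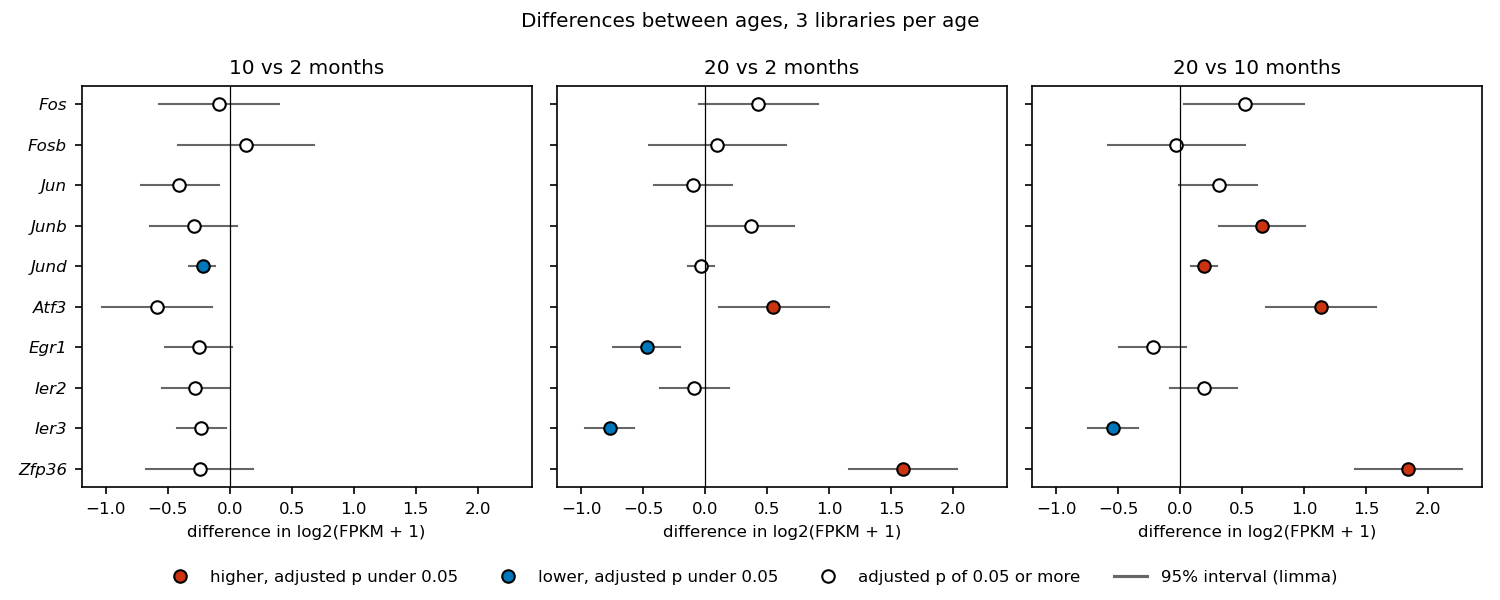
Differences in log2(FPKM + 1) between ages (horizontal axes) for each of the 10 genes, with limma's 95% interval as a line; filled points have an adjusted p under 0.05. Most intervals in the panel of 10 against 2 months lie left of or just across 0, while Zfp36 at 1.60 and 1.84 stands apart in both panels with 20 months.

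The change from 10 to 20 months minus the change from 2 to 10 months, called the bend here, was tested too. These steps are not equally long, so a gene that changed at a constant monthly rate would also give a difference. The test is thus not one of a change in rate. The bend was positive, the later step lying above the earlier one, for Jun (0.72 ± 0.24 SE, adjusted p = 0.0391), Junb (0.95 ± 0.27, adjusted p = 0.0195), Jund (0.42 ± 0.08, adjusted p = 0.00372), Atf3 (1.72 ± 0.34, adjusted p = 0.00399) and Zfp36 (2.08 ± 0.33, adjusted p = 0.00149). That is 5 of 10 members, where the bend was positive for 5.60% of tested genes and negative for 38.7%. These shares hold for the FPKM as deposited and were not computed after median-of-ratios scaling. That scaling shifted the middle of all genes by 0.24 in 20 against 10 months and by −0.03 in 10 against 2 months. For Ier3 the bend was −0.31 ± 0.15 (adjusted p = 0.127) and for Egr1 0.03 (adjusted p = 0.907), and neither passed the test. All 5 calls held without replicate 3 of 20 months, and the bend of Ier3 was then negative (−0.43, adjusted p = 0.00226). The call for Jun was lost without any 1 of the 2- or 10-month libraries (adjusted p = 0.0624 to 0.118), and that for Junb without replicate 2 or 3 of 10 months (adjusted p = 0.0608 and 0.0686).

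The spread between libraries was itself uneven. The CV of the members had a median of 3.56% at 2 months, 4.27% at 10 months and 26.6% at 20 months, where it ran from 6.10 to 63.7%. Over the 7751 tested genes with a mean FPKM of at least 5 the medians were 3.59, 3.64 and 6.76%. At 20 months replicate 3 was the highest of the 3 libraries for 9 of the 10 genes, all but Jund, and replicate 1 the lowest for 9, all but Jun. Of all tested genes 29.9% were highest in replicate 3 and 28.0% lowest in replicate 1. Replicate 3 was also the library with the muscle and fibroblast markers (Acta1 at 92.5 FPKM against 1.73 and 0.760, Dcn at 66.4 FPKM against 13.8 and 19.7). In the fibroblast list Col1a1, Col3a1 and Lum were also highest there among the 20-month libraries. Scx was lowest there (1.31 FPKM against 1.35 and 1.84), and Prg4 stood at 6.03 FPKM against 5.64 and 3.52. Col1a1, at 5.09 FPKM, was below its 2-month values of 9.35 to 9.62 FPKM. The part of these markers in the members' levels was not tested. Replicate 1 held the fewest bases.

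**Figure D4:**
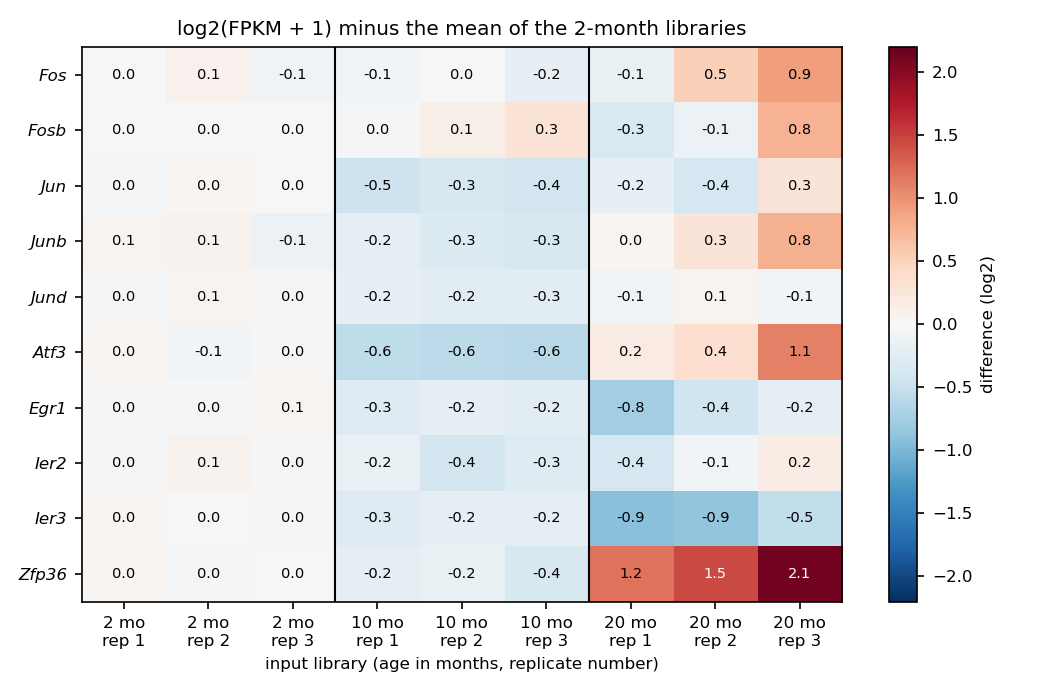
Each cell is the log2(FPKM + 1) of a gene (rows) in a library (columns) minus the gene's mean over the 2-month libraries, printed to 1 decimal, red for higher and blue for lower. The 2-month cells are near 0 and the 10-month cells mostly pale blue, while at 20 months replicate 3 is the highest library in 9 of the 10 rows.

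Heat shock chaperone genes, which also respond to handling stress, were followed as a list of their own. Their summed level over 11 genes was 1191 to 1219 FPKM at 2 months, 1045 to 1068 at 10 months and 965, 1054 and 970 FPKM in the 20-month libraries. Of the 11, 2 rose and 6 fell between 2 and 20 months, near the 18.6% and 49.6% of all tested genes, with a median of −0.15 against −0.20. Those with the smallest adjusted p, Dnaja1 (−0.75), Hspb1 (−0.68), Hspa1b (−1.73) and Hsph1 (−0.64), all fell. After median-of-ratios scaling 5 of the 11 rose and 4 fell (31.1% and 31.2% of all tested genes). Among other possible sources of RNA, the summed macrophage and neutrophil markers were 23.1 to 27.6 FPKM over all libraries and the lymphocyte markers at most 0.170 FPKM. The red blood cell markers stood at 83.9 to 94.2, 9.78 to 10.6 and 37.1 to 42.5 FPKM at the 3 ages.

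The other immediate early genes, 30 tested of 42 listed, rose more often than they fell at 20 months. Of these, 13 rose and 4 fell against 2 months (18.6% and 49.6% of all tested genes), and 19 rose and 2 fell against 10 months (11.4% and 53.3%). After median-of-ratios scaling 18 rose and 1 fell against 2 months (31.1% and 31.2%), and 22 rose and 1 fell against 10 months (26.8% and 25.7%). Plk2, which encodes a stress-responsive polo-like kinase, rose from 3.79 ± 0.156 to 16.2 ± 2.57 FPKM between 2 and 20 months (1.83 ± 0.10 SE, adjusted p = 6.48e-07). Ccn2, the gene of connective tissue growth factor, showed a difference of 1.78 ± 0.11. Gadd45a, a growth arrest and DNA damage response gene, rose from 22.1 ± 1.49 to 38.3 ± 2.81 FPKM (0.77 ± 0.07, adjusted p = 1.13e-05), and the circadian gene Per1 by 0.48 ± 0.05 on the log2 scale (adjusted p = 2.69e-05). The median difference of the list was 0.30 against 2 months, and −0.20 over all tested genes. Without replicate 3 of 20 months 13 rose and 6 fell against 2 months (18.2% and 48.1% of all tested genes). Between 2 and 10 months 2 rose and 8 fell (19.0% and 11.4% of all tested genes), with a median of −0.13 against 0.04 over all tested genes.

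Upstream of these genes most of the listed factors fell. Of 12 tested transcription factors and coactivators that act on immediate early promoters, 11 fell and 1 rose between 2 and 20 months (8 and 1 after median-of-ratios scaling). Over all tested genes 49.6% fell and 18.6% rose (31.2% and 31.1% after that scaling). Elk1, a MAP kinase target that binds beside SRF, fell from 20.3 ± 0.699 to 8.06 ± 0.445 FPKM (−1.23 ± 0.05 SE, adjusted p = 1.89e-07). The coactivator gene Crebbp fell by 0.81 on the log2 scale (SE 0.05) and its relative Ep300 from 8.69 ± 0.188 to 4.98 ± 0.487 FPKM (−0.70 ± 0.06). Elk3 fell from 5.15 ± 0.162 to 2.64 ± 0.00649 FPKM (−0.76 ± 0.05). The single riser, named after its values were seen, was Srf itself, from 7.14 ± 0.0411 to 10.3 ± 0.960 FPKM (0.47, adjusted p = 4.66e-04). The median of the list was −0.66, against −0.20 over all tested genes.

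Of 22 tested genes of the MAP kinase cascade 13 fell and 1 rose between 2 and 20 months. After median-of-ratios scaling 8 fell and 5 rose, where 31.2% of all tested genes fell and 31.1% rose. As deposited, the median of the list was −0.22 against −0.20 over all tested genes, of which 49.6% fell and 18.6% rose. Mapk3, a kinase gene of the cascade, fell from 102 ± 1.44 to 56.5 ± 3.23 FPKM (−0.84 ± 0.04 SE, adjusted p = 6.02e-07). Nras fell by 0.72 and the p38 kinase activator gene Map2k3 by 0.84 on the log2 scale. Among the feedback inhibitors, which switch the response off, 4 of 9 tested fell and 2 rose as deposited, near the deposited background, with a median of −0.05. After scaling 4 fell and 4 rose (31.2% and 31.1% of all tested genes). Nab2, the EGR1 corepressor gene, fell from 13.2 ± 0.0464 to 8.67 ± 0.348 FPKM (−0.55 ± 0.04, adjusted p = 6.70e-06), and Nab1 (−0.36) and the MAP kinase phosphatase genes Dusp8 (−0.78) and Dusp16 (−0.73) fell too.

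Of the other AP-1 and dimer partners 6 of 11 tested fell and 2 rose between 2 and 20 months. Over all tested genes 49.6% fell and 18.6% rose, so that the counts were near background, and the medians were −0.15 and −0.20. After median-of-ratios scaling 5 fell and 3 rose (31.2% and 31.1% of all tested genes). Atf7 fell from 21.1 ± 1.09 to 10.9 ± 0.932 FPKM (−0.90 ± 0.06 SE, adjusted p = 3.25e-06) and its relative Atf2 from 12.6 ± 0.825 to 7.50 ± 0.423 FPKM (−0.67 ± 0.06, adjusted p = 1.23e-05). Jdp2, the gene of a JUN-binding repressor, fell by 0.57 and Batf by 0.88 on the log2 scale.

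Of 11 tested genes of the Zfp36 family and of AU-rich element mRNA stability, 2 rose and 6 fell between 2 and 20 months. These counts were near the background of 18.6% rising and 49.6% falling, and the median difference of −0.16 was near the −0.20 of all tested genes. After median-of-ratios scaling 3 rose and 3 fell (31.1% and 31.2% of all tested genes). The Zfp36 paralogs, named after their values were seen, stood at 17.3 ± 0.662 and 15.7 ± 2.11 FPKM (Zfp36l1) and at 20.4 ± 0.994 and 14.0 ± 3.42 FPKM (Zfp36l2). Zfp36l2 fell (−0.54, adjusted p = 0.00484). Cnot1, the scaffold gene of the deadenylase complex that tristetraprolin recruits, fell from 30.5 ± 0.441 to 19.7 ± 0.207 FPKM (−0.61 ± 0.03 SE, adjusted p = 5.85e-07). Its partner gene Cnot7 (−0.37) and Khsrp (−0.47) fell as well, and Tial1, an AU-rich element binding gene, rose (0.34, adjusted p = 0.00105).

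Among 13 tested genes known as AP-1 or EGR1 targets, 3 rose and 8 fell between 2 and 20 months, where 18.6% of all tested genes rose and 49.6% fell. After median-of-ratios scaling 3 rose and 6 fell (31.1% and 31.2% of all tested genes). Tgfb1 fell from 26.9 ± 0.239 to 15.1 ± 1.23 FPKM (−0.80 ± 0.05 SE, adjusted p = 2.10e-06) and the platelet-derived growth factor gene Pdgfa from 88.5 ± 4.86 to 50.3 ± 5.06 FPKM (−0.81 ± 0.07, adjusted p = 8.95e-06). The membrane metalloproteinase gene Mmp14 fell by 0.60 and Nab2, which is in this list too, by 0.55 on the log2 scale. The median of the list was −0.32, against −0.20 over all tested genes.

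By level, Jund led and Fosb came last at each age. At 2 months Fos and Egr1, and Junb and Zfp36, could not be ordered beyond the spread of their libraries, nor at 10 months could Ier3 and Fos, or Zfp36 and Junb. At 20 months each gene from Jund down to Atf3 overlapped the next lower one in the order, and Ier2 stood clear of Fosb.

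The genes whose log2 level followed a member most closely over the 9 libraries were sought among the 7751 genes with a mean FPKM of at least 5. They are given as a description, since all values share the same libraries. For Fos they were Nuak1, Dcun1d5 and Vegfa (Pearson's r of 0.952, 0.936 and 0.925), all highest in replicate 3 of 20 months, where Vegfa stood at 629 FPKM. For Atf3 they were Klf4 (0.974), Rnf19b (0.968) and Emp1 (0.960). Klf4, itself an immediate early gene, measured 8.05, 7.93 and 7.24 FPKM at 2 months, 4.31, 4.21 and 4.47 FPKM at 10 months and 8.59, 8.64 and 14.0 FPKM at 20 months, with the same dip. For Egr1 they were Piezo1, the gene of a mechanically gated channel (0.959), Tcf12 (0.954) and Lama4 (0.953).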

How the data were processed

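Input RNA of 9 libraries (3 per age) was analysed. The authors deposited FPKM per gene and, per transcript, FPKM and read coverage, per the file headers. Tools named in the submitters' processing notes, with no roles, are StringTie 1.3.4d, HISAT2 2.0.4 and cutadapt 1.9, besides edgeR and DESeq2. The build, annotation and strandedness remain not given in the sources used here, so antisense or near-identical genes cannot be separated. Depth was estimated from FPKM over the deposited coverage signal. Read length and fragments per gene were estimated from coverage times transcript length, and sampling error was taken from the fragments.

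Of 18923 genes, the 11708 that reached an FPKM of 1 in 3 or more libraries were tested by limma 3.58.1 (R 4.3.3, empirical Bayes, trend) on log2(FPKM + 1), a scale that understates changes of low genes. All adjusted p-values come from this test with Benjamini-Hochberg adjustment over all tested genes. Ages were contrasted in 1 fit, with the bend contrast in the same fit.

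The members, lists and tests were chosen with earlier results of these data known. All members are named. Of each pathway list, the up to 4 called genes with the smallest adjusted p in 20 against 2 months are named, and for Fos, Egr1 and Atf3 the 3 genes of highest correlation. Srf, Zfp36l1, Zfp36l2 and the markers Tbxt, Krt19, Shh, Foxa2, Acta1, Dcn, Col1a1, Col3a1, Lum, Scx and Prg4 are outside this rule and were chosen after their values were seen. A gene that the rule would name is not reported here. Replicate numbers did not pair libraries: deviations from group means of same-numbered libraries correlated at −0.04 to 0.05 in 9 pairs. Alternatives were other pseudocounts (0.1 and 5), filters, scalings, weights, a replicate block and leaving out each library. Promoters came from RefSeq, GRCr8.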

Additional observations from a re-analysis of the deposited data

How the results depend on the processing

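The settings were 19 others, and an added alternative chosen after seeing the data, median-of-ratios scaling without replicate 3 of 20 months. Between 2 and 10 months the number of members that fell was 1 in the main fit (11.4% of tested genes). It moved to 2 with pseudocount 0.1 (1263 of 11708 tested genes fell) and with quantile normalization (14.5%). It was 3 with the filter at FPKM 5 (1188 of 8184) and with median-of-ratios scaling (14.5%). With array weights 7 fell (1956 of 11708). With only those ages fitted 8 fell (16.2%), as in the added alternative (16.7%). Without single libraries the number ran from 1 to 8, where 928 to 1565 tested genes fell. None rose under any of these. Between 2 and 20 months 1 rose with no filter (2305 of 18923 tested genes) or only those ages fitted (17.5%). The number was 4 with quantile normalization (28.0%), array weights (1988 of 11708) or the added alternative (30.5%). It was 5 with median-of-ratios scaling (31.1%). Without single libraries it ran from 1 to 4, where 1944 to 2138 tested genes rose. The number that fell was 1 under either scaling, where 31.2% (median of ratios) and 34.4% (quantile) of tested genes fell. Between 10 and 20 months 7 rose with median-of-ratios scaling (26.8%), quantile normalization (22.7%) and the added alternative (26.7%). The number was 6 without replicate 1 of 20 months (11.2%) and 5 without replicate 2 (11.4%). With array weights Fos also rose (0.52, adjusted p = 0.0264). The number that fell ran from 1 to 3 without single libraries, where 5702 to 6284 tested genes fell.

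Some differences of single genes turned sign. Between 2 and 20 months these were Fosb (−0.23 to 0.32 without single libraries and −0.10 in the added alternative), Jun (0.13 with median-of-ratios scaling, 0.04 with quantile normalization and −0.29 to 0.05 without single libraries), Jund (0.20, 0.12, −0.08 to 0.00 and 0.21 in the added alternative) and Ier2 (0.12, 0.10 and −0.21 to 0.05 without single libraries). Between 10 and 20 months these were Fosb (0.00 with a pseudocount of 5, 0.15 and 0.19 under the scalings, and −0.37 to 0.19 without single libraries) and Egr1 (0.04 with median-of-ratios scaling). In the test of a bend they were Fosb (0.04 and 0.12 under the scalings, −0.50 to 0.05 without single libraries) and Egr1 (−0.10 to 0.19 without single libraries). The cause was not tested. Fosb did not pass the filter at FPKM 5, and the bend needs all ages, so these gave no value. Other calls lost were those of Atf3 between 2 and 20 months with no filter (adjusted p = 0.0634) or only those ages fitted (adjusted p = 0.0645), and of the bend of Jun with no filter (adjusted p = 0.0782).

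A replicate block gave 3185, 7859 and 7467 called genes in 10 against 2, 20 against 2 and 20 against 10 months (3551, 7986 and 7576 without it) and left the member counts as they were. Same-numbered libraries did not deviate together, so the numbers do not pair them. Depth limits mainly Fosb among the members. With 3 libraries an age and a 20-month spread of 26.6%, differences under about the intervals given could not be resolved.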
